A study of Gallus gallus with 72 samples.

Results

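The nuclear-encoded respiratory chain genes were the 82 genes of the 12046 in the count table whose symbols begin with NDUF, SDHA to SDHD, UQCR, COX4 to COX8, COX10 to COX19 or ATP5. They comprised 62 subunits, 17 assembly factors and 3 others, namely COX7A2L, which joins complexes III and IV into supercomplexes, ATP5S, a coupling factor of ATP synthase, and ATP5A1W, a copy of the alpha subunit gene on the W chromosome. Of the subunits, 30 belonged to complex I, 3 to complex II, 7 to complex III, 8 to complex IV and 14 to ATP synthase (complex V). Subunits with no such symbol in the count table are not covered. Of the assembly factors, 8 serve complex I, 2 serve complex II and 7 serve complex IV. All 82 passed the filter on low counts when the 72 libraries were fitted together, which left 11932 genes for testing.

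The study sequenced RNA from breast muscle of male chickens in 3 breed groups: purebred Cornish, purebred White Plymouth Rock and the crossbred progeny of both. Each was sampled in the embryo at E17 (labelled as embryonic, age 17) and after hatch at D1, D21 and D42 (1, 21 and 42 days of age), with 6 libraries in each of the 12 groups and no treatment in the labels. The labels name myofibroblasts under a cell line heading, whereas the extraction protocol starts from frozen muscle tissue, and the sum of 9 fast fibre markers ran from 25120 to 135600 CPM (counts scaled to library size) over the libraries. The labels do not say that the 6 libraries of a group came from separate birds, and the p-values then measure only spread between libraries, some of which may be technical.

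The respiratory chain lies in the inner mitochondrial membrane. Complex I oxidises NADH and complex II oxidises succinate, complex III passes the electrons to cytochrome c, complex IV reduces oxygen, and ATP synthase uses the resulting proton gradient to make ATP. Mitochondrial DNA encodes a few core subunits of all of these except complex II, nuclear genes encode the rest, and assembly factors insert haem, copper, flavin and iron-sulfur groups or hold unfinished complexes without being part of them. Chicken breast muscle consists mainly of fast fibres that rely largely on glycolysis.

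The median total count was 54464688; the lowest, 16673085, belonged to library 1 of the crossbred at D1 and the highest was 75670549. Levels are CPM with TMM scaling, and log2 fold changes are given ± standard error with Benjamini-Hochberg adjusted p-values of edgeR's quasi-likelihood test over all genes tested. A gene is said to rise or fall when that adjusted p is under 0.05. CPM are not divided by gene length, so levels of different genes are not comparable. In whole tissue, fewer cells of a type and less RNA per cell cannot be told apart. RefSeq places 78 of the 82 genes on 26 chromosomes of the GRCg7b build, and 12 of them overlap the span of another protein-coding gene, among them NDUFA8, NDUFA10, NDUFB2, SDHB, SDHD, ATP5PB, ATP5F1AZ and ATP5S. The strand setting of the counting is not given, so counts of those 12 genes may include reads of the neighbour.

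Together the 82 genes held 0.720% ± 0.082 of all counts at E17 (SD, n = 18), 1.46% ± 0.225 at D1, 0.802% ± 0.058 at D21 and 0.721% ± 0.062 at D42. D1 stood apart: its lowest library, at 1.04%, lay above the highest of the other 54 libraries, at 0.889%. For a summary in which abundant genes do not dominate, each gene was set against its own mean over the 72 libraries on the log2 scale and the median over genes was taken. For the 62 subunits this relative level at E17 was -0.59 ± 0.10 for Cornish, -0.66 ± 0.19 for the crossbred and -0.61 ± 0.15 for White Plymouth Rock (SD, n = 6 each). At D1 it was 0.69 ± 0.19, 0.41 ± 0.26 and 0.46 ± 0.26 in the same order. At D21 it was 0.21 ± 0.21, 0.15 ± 0.17 and 0.012 ± 0.17, and at D42 it was 0.052 ± 0.29, -0.076 ± 0.28 and -0.076 ± 0.17. The order of stages was the same in each breed group, with E17 lowest and D1 highest, and the D21 and D42 ranges overlapped. The median over assembly factors was also lowest at E17, at -0.38 ± 0.09 over the 18 libraries, but was level afterwards, at 0.10 ± 0.12, 0.11 ± 0.14 and 0.15 ± 0.18.

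**Figure D1:**
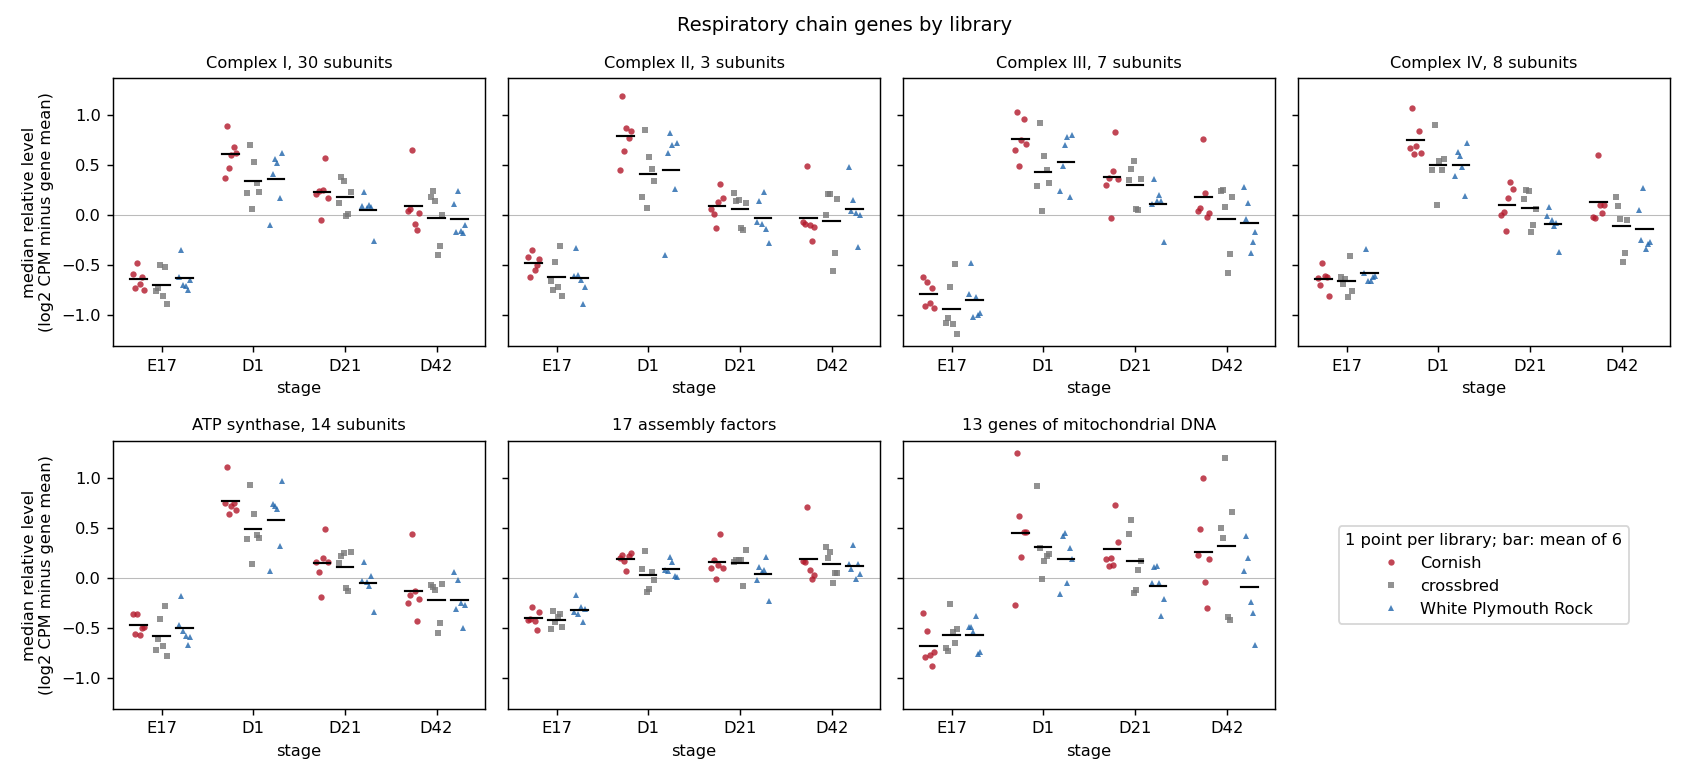
Median relative level (log2 CPM minus the gene's mean over 72 libraries, y axis) of the subunits of each complex, of the assembly factors and of the genes encoded by mitochondrial DNA, by stage (x axis) and breed group. Each point is a library and each bar the mean of 6 libraries. Subunits lie lowest at E17 and highest at D1. The median of the assembly factors stays level from D1 on, although 8 of the 17 rose and 7 fell from D1 to D21.

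Across hatch, from E17 to D1, transcripts of nearly every subunit rose: 61 of the 62 subunits rose and none fell, with a median log2 fold change of 1.18. Of all 82 members 76 rose, while 37.3% of all genes rose, 35.6% fell and the median gene moved by 0.01. Of the 17 assembly factors 13 rose and none fell, with a median of 0.56. The same 61 subunits rose in all 3 breed groups when each was tested alone, a pattern met by 22.1% of all genes. For 40 of the 62 subunits every D1 library lay above every E17 library, 18 against 18, as for 8.63% of all genes.

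Every one of the 30 measured complex I subunits rose, with a median of 1.10 and a range of 0.62 to 1.70. The NADH-oxidising part had a median of 1.12 over 8 subunits, the quinone-reducing part 1.31 over 5, and the 17 membrane and other accessory subunits 1.05. NDUFB10, an accessory subunit of the membrane arm encoded at chr14:6143559-6145209, lay between 41.2 and 70.7 CPM at E17 (median 54.3) and between 119.9 and 268 CPM at D1 (median 180.0), with no overlap. Its log2 fold change of 1.70 ± 0.10 was the largest in the complex (adjusted p = 7.7e-23). NDUFA13, another accessory subunit, was at 21.8 to 33.2 CPM (median 26.8) and then at 54.7 to 144 CPM (median 82.3), again without overlap (1.68 ± 0.09, adjusted p = 4.8e-26). NDUFV1, which binds the flavin that takes electrons from NADH, was at 108 to 170 CPM at E17 (median 132) and at 280 to 639 CPM at D1 (median 406), without overlap. It rose by 1.58 ± 0.07 (adjusted p = 1.4e-28). The smallest rise, 0.62 ± 0.07, was that of NDUFV2, an iron-sulfur subunit of the same part, whose groups overlapped at 51.3 to 67.9 and 46.4 to 117 CPM.

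All 3 measured subunits of complex II rose. SDHA, the flavoprotein that oxidises succinate, ran from 105 to 164 CPM at E17 (median 137) and from 255 to 513 CPM at D1 (median 358). The stages did not overlap, and the change was 1.38 ± 0.08 (adjusted p = 1.6e-24). The iron-sulfur subunit SDHB rose by 1.18 ± 0.09 and the membrane anchor SDHD by 0.80 ± 0.08, both with overlapping libraries and both among the genes that overlap a neighbour.

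Complex III had the largest median rise of the 5 complexes, 1.50 over its 7 subunits, and all 7 rose. UQCR11, a small membrane subunit encoded at chr28:2858901-2860817, was at 20.7 to 42.8 CPM in E17 libraries (median 28.1) and at 65.6 to 191 CPM in D1 libraries (median 116), without overlap. It rose by 2.02 ± 0.13 (adjusted p = 3.6e-22), more than any other of the 82 genes. UQCR10, another small subunit, went from 11.9 to 19.5 CPM (median 15.1) to a range of 29.4 to 61.4 CPM (median 46.8), with no overlap and a change of 1.61 ± 0.09 (adjusted p = 1.2e-23). The Rieske iron-sulfur protein UQCRFS1 rose by 1.46 ± 0.09 and the core protein UQCRC1 by 1.43 ± 0.09.

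In complex IV 7 of the 8 subunits rose, with a median of 1.25. COX5A, a subunit on the matrix side, was at 68.7 to 94.2 CPM at E17 (median 84.3) and at 177 to 328 CPM at D1 (median 240), a change of 1.54 ± 0.07 (adjusted p = 3.1e-28). COX4I1, a nuclear subunit through which ATP regulates the enzyme, went from 162 to 210 CPM (median 187) to a range of 349 to 586 CPM (median 445), a change of 1.29 ± 0.08 (adjusted p = 6.4e-23). Neither gene's stages overlapped. COX6A1 rose by 1.34 ± 0.10 and NDUFA4, a late-joining subunit, by 1.21 ± 0.08. COX7A2 was the one subunit of the 62 that did not pass: it was at 5.58 to 10.7 CPM at E17 (median 7.89) and at 5.45 to 13.8 CPM at D1 (median 8.68), with a log2 fold change of 0.16 ± 0.11 (adjusted p = 0.21).

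All 14 measured subunits of ATP synthase rose, with a median of 1.05. ATP5B, the catalytic beta subunit, had 645 to 1302 CPM at E17 (median 986) and 1363 to 3952 CPM at D1 (median 2476), without overlap, and changed by 1.26 ± 0.09 (adjusted p = 4.25e-19). ATP5F1AZ, the alpha subunit gene on the Z chromosome, rose by 1.04 ± 0.09. Among membrane subunits, ATP5MC1, which encodes subunit c of the rotating ring, was at 72.5 to 131 CPM at E17 (median 93.7) and at 158 to 548 CPM at D1 (median 293), without overlap. It rose by 1.62 ± 0.11 (adjusted p = 2.5e-21), and ATP5L, subunit g, by 1.50 ± 0.09.

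Among assembly factors the largest rises were those of COX10, which makes the haem O precursor for complex IV (1.27 ± 0.09), of the copper factor COX19 (0.93 ± 0.06), and of SDHAF2, which helps attach flavin to SDHA (0.85 ± 0.08). COX10 lay at 13.8 to 21.9 CPM at E17 (median 17.1) and at 28.1 to 62.1 CPM at D1 (median 41.7), with no overlap (adjusted p = 1.2e-20). The 4 that did not pass were NDUFAF1 at -0.06, NDUFAF6 at -0.05, NDUFAF5 at 0.09 and COX18 at 0.19. The supercomplex factor COX7A2L rose by 1.50 ± 0.08 (adjusted p = 1.7e-26). ATP5S was the one member that fell, by 0.81 ± 0.12 on the log2 scale (adjusted p = 2.1e-08), from 2.80 to 6.41 CPM at E17 (median 4.65) to 1.59 to 4.43 CPM at D1 (median 2.62), with overlap.

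Other mitochondrial genes moved the same way at this step. The 13 respiratory chain genes of mitochondrial DNA all rose, with a median of 1.01, and their share of all counts went from 4.80% ± 0.501 at E17 to 8.28% ± 2.12 at D1 (SD, n = 18). CYCS, which encodes cytochrome c, rose by 2.37 ± 0.13. Of 16 genes of the pyruvate dehydrogenase complex and the citric acid cycle 15 rose and 1 fell, with a median of 1.10, and CS, citrate synthase, rose by 1.74 ± 0.10. Among 19 regulators of mitochondrial gene expression 13 rose and 1 fell, with PPARGC1A, a coactivator of mitochondrial genes in mammals, at 1.34 ± 0.15, NRF1 at 0.93 ± 0.09 and TFAM, which packages mitochondrial DNA, at 0.60 ± 0.05. Glycolytic genes were divided, with 9 of 16 higher and 6 lower. Of 25 assembly factors with symbols outside the rule 17 rose and 3 fell, with a median of 0.48, among them ACAD9, needed for complex I assembly, at 1.70 ± 0.11.

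Markers of other cells moved with this step as well. All 12 fibroblast markers fell, and their summed level ran from 45390 to 68220 CPM at E17 and from 6784 to 38810 CPM at D1. Of 8 red blood cell markers 5 fell and 2 rose, with sums of 543 to 1615 CPM and then 318 to 1032 CPM. Of 12 leukocyte markers 6 fell and 1 rose, with sums of 194 to 267 CPM and then 58.2 to 185 CPM. Of 9 fast fibre markers 7 rose and 1 fell, whereas 2 of 10 slow fibre markers rose and 3 fell. None of these markers had a median of 0 at E17 or D1. Their part in the rise of the respiratory chain genes was not tested. Scaling by library totals without TMM factors was an alternative chosen after the data were seen. It placed the median of all genes at this step at -0.15 and left 74 members higher and 3 lower. The shares of all genes called under that scaling are not given here.

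**Figure D2:**
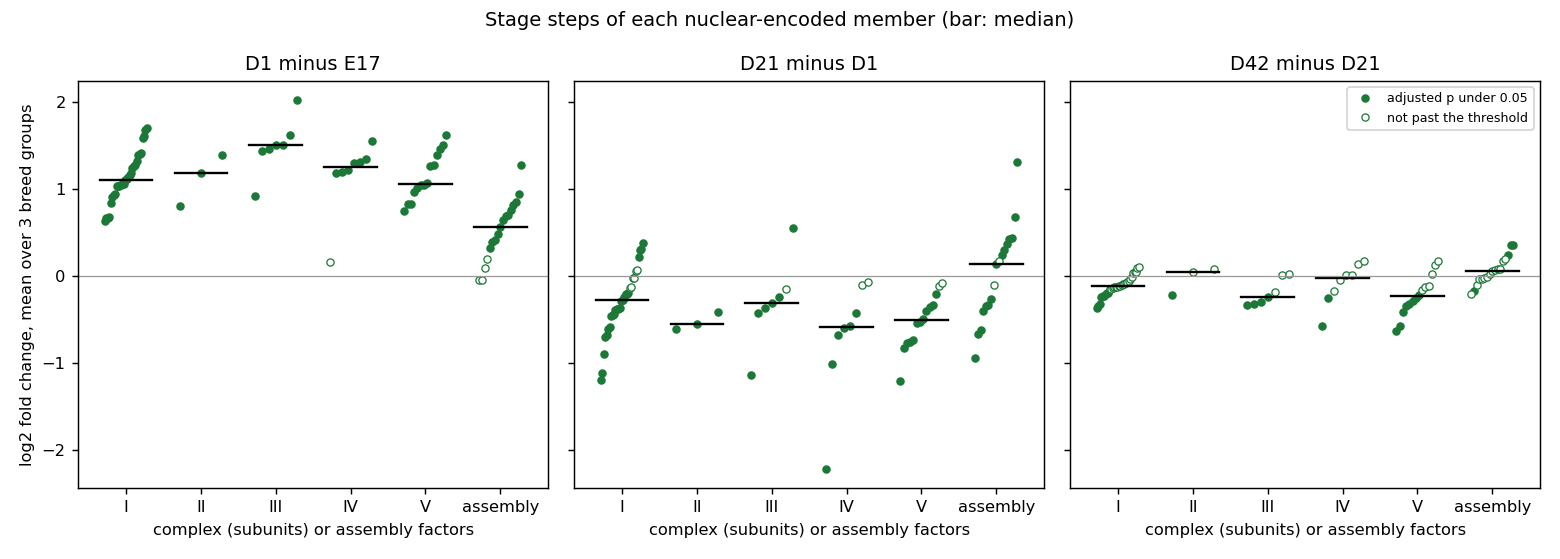
Log2 fold change (y axis, mean over the 3 breed groups) of each subunit by complex and of each assembly factor (x axis) at the steps D1 minus E17, D21 minus D1 and D42 minus D21. Filled points have an adjusted p under 0.05 and bars are medians. All subunits lie above 0 at the first step and most lie below 0 at the second.

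From D1 to D21 most subunits fell, with a smaller median change than at hatch. Of the 62 subunits 46 fell and 5 rose, with a median of -0.39, and of all 82 members 54 fell and 14 rose, against 36.8% and 36.4% of all genes and a median gene at -0.01. The 17 assembly factors were split, with 8 higher, 7 lower and a median of 0.13. In all 3 breed groups tested alone, 25 subunits fell and none rose, where 20.5% of all genes fell and 19.8% rose. This step and the one before share the 18 D1 libraries, so any deviation of those libraries enters both with opposite sign. Scaling by library totals placed the median of all genes at -0.32 and moved the split of members to 67 lower and 4 higher. The shares of all genes called under that scaling are not given here.

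COX6A1 fell most. Its levels of 112 to 386 CPM at D1 (median 249.7) were followed by 37.9 to 66.8 CPM at D21 (median 52.0), with no overlap, a fall by 2.23 ± 0.10 on the log2 scale (adjusted p = 5.3e-30). The gene lies at chr15:9301678-9302947, and in mammals its protein is the widely expressed form of subunit 6A, for which heart and skeletal muscle use the form encoded by COX6A2. The symbols COX6A2, COX7A1 and COX8A were not among those of the count table, so these forms could not be compared. COX4I1 fell by 1.01 ± 0.08 (adjusted p = 2.0e-18), from the D1 levels given above to 168 to 285 CPM (median 223), overlapping its E17 range. COX7A2 fell by 0.60 ± 0.12 to 4.46 to 7.92 CPM (median 6.11), and in mammals it too is the widely expressed form of a subunit with a muscle counterpart. COX7C and NDUFA4 did not pass, at -0.10 ± 0.09 and -0.07 ± 0.08.

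In complex I 20 subunits fell and 4 rose, with a median of -0.28. NDUFV1 went from the D1 levels given above to 155 to 237 CPM (median 185), without overlap, and fell by 1.12 ± 0.07 (adjusted p = 9.65e-22). NDUFS1, the largest iron-sulfur subunit, fell by 0.59 ± 0.10. The 4 that rose were the accessory subunits NDUFS6 (0.38 ± 0.08), NDUFA8 (0.30 ± 0.08), NDUFB4 and NDUFA1. With library totals NDUFS6 no longer passed, at 0.07, and NDUFA8 was at -0.004, so the rises of these genes depend on the scaling.

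In complex II SDHB fell by 0.61 ± 0.09, SDHA by 0.56 ± 0.08 and SDHD by 0.42 ± 0.08. In complex III 5 subunits fell and 1 rose. UQCRC1 went from 348 to 974 CPM at D1 (median 535) to 172 to 323 CPM at D21 (median 232), without overlap, and fell by 1.15 ± 0.09 (adjusted p = 5.9e-19). UQCR10 moved the other way, from 29.4 to 61.4 CPM to 48.5 to 99.3 CPM (median 65.7), with overlap, and rose by 0.55 ± 0.09 (adjusted p = 3.8e-07). Of the 62 subunits 5 were lower without overlap between D1 and D21, among them COX6A1, COX4I1, NDUFV1 and UQCRC1, against 5.67% of all genes.

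ATP synthase subunits fell in 12 of 14 cases, with a median of -0.51. ATP5B fell by 0.84 ± 0.09 to 974 to 1797 CPM (median 1268). The ring genes ATP5MC1 and ATP5G3, which in mammals encode the same mature subunit c, gave different values: ATP5MC1 fell by 1.21 ± 0.11 to 84.8 to 171 CPM (median 131), whereas ATP5G3, at 87.7 to 286 CPM at D1 (median 156) and 113 to 262 CPM at D21 (median 147.0), gave -0.08 ± 0.10 (adjusted p = 0.46). The log2 ratio of ATP5MC1 to ATP5G3 within a library was 0.07 ± 0.16 at E17, 0.86 ± 0.24 at D1, -0.26 ± 0.22 at D21 and 0.05 ± 0.25 at D42 (SD, n = 18), and the D1 libraries, at 0.46 to 1.30, lay above all D21 libraries, at -0.87 to 0.0075. The log2 ratio of COX6A1 to COX4I1 was -0.96 ± 0.20 at E17 and -0.93 ± 0.40 at D1, then -2.11 ± 0.25 at D21 and -2.64 ± 0.61 at D42. Both pairs were chosen after their values were seen, so no test is given.

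**Figure D3:**
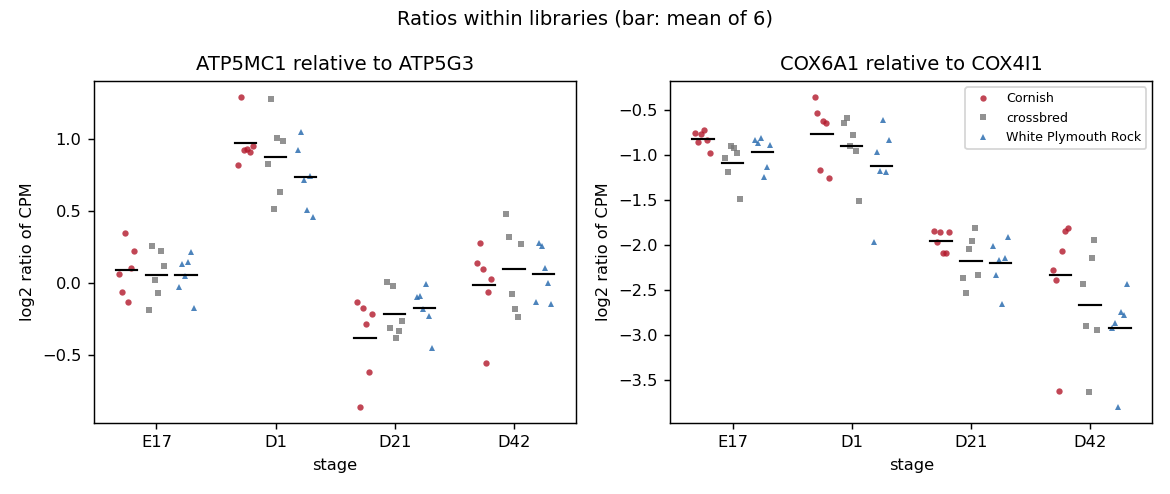
Log2 ratio of CPM within each library (y axis) of ATP5MC1 to ATP5G3 and of COX6A1 to COX4I1, by stage (x axis) and breed group. Points are libraries and bars means of 6; the first ratio is highest at D1 and the second drops between D1 and D21 in every breed group.

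The assembly factors of complex IV were divided at this step. COX14, which promotes synthesis of the subunit encoded by mitochondrial COX1, went from 1.14 to 2.55 CPM at D1 (median 1.88) to 2.66 to 7.78 CPM at D21 (median 4.48), without overlap, and rose by 1.30 ± 0.12 (adjusted p = 1.1e-14). Its mean lies under the 5 CPM asked of genes named for the largest changes at a step, and it was picked with its value known. NDUFAF2, a late complex I assembly factor, rose by 0.67 ± 0.07, the haem A factor COX15 by 0.43 ± 0.06 and the copper chaperone COX17 by 0.43 ± 0.08. The last pair no longer passed with library totals, at 0.12 and 0.11. COX18, which inserts part of the COX2 protein into the membrane, fell by 0.94 ± 0.10, COX19 by 0.67 ± 0.06 and COX11, which delivers copper, by 0.62 ± 0.08. ATP5S rose by 1.23 ± 0.12 (adjusted p = 5.0e-14) to 3.81 to 9.38 CPM.

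Of the 13 genes of mitochondrial DNA 5 fell and none rose at this step, with a median of -0.12. ND6, the one of them on the light strand, fell by 1.50 ± 0.13 and the other 4 that fell, ND4L, ND4, ND5 and COX1, by 0.33 to 0.46. Without strand information ND6 reads and reads of the opposite strand cannot be told apart. Of the 16 genes of the pyruvate dehydrogenase complex and the citric acid cycle 12 fell and none rose, with a median of -0.57. CS fell by 1.53 ± 0.10. Of the regulators 13 of 19 fell and 4 rose, with PPARGC1A at -2.50 ± 0.16, ESRRG at -1.61 ± 0.12 and TFAM at -1.08 ± 0.06. Glycolytic genes went the other way, with 13 of 16 higher, 2 lower and a median of 1.63.

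The leukocyte markers rose in 12 of 12 cases, from summed levels of 58.2 to 185 CPM at D1 to 1066 to 1663 CPM at D21. Of the fibroblast markers 9 of 12 rose and 2 fell, with sums of 17050 to 35890 CPM at D21. Of 9 fast fibre markers 6 rose and 1 fell, with a median of 1.18. Of 8 red blood cell markers 4 fell and none rose, and 9 of 11 endothelial markers rose. Of 10 slow fibre markers 8 fell and 2 rose, and the slow light chain gene MYL2 had a median of 0 at D21 and D42, and MYL3 at D42. The adipocyte marker CIDEC had a median of 0 at D1, and 5 of 8 adipocyte markers rose. The part of these cells in the fall of the subunits was not tested.

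**Figure D4:**
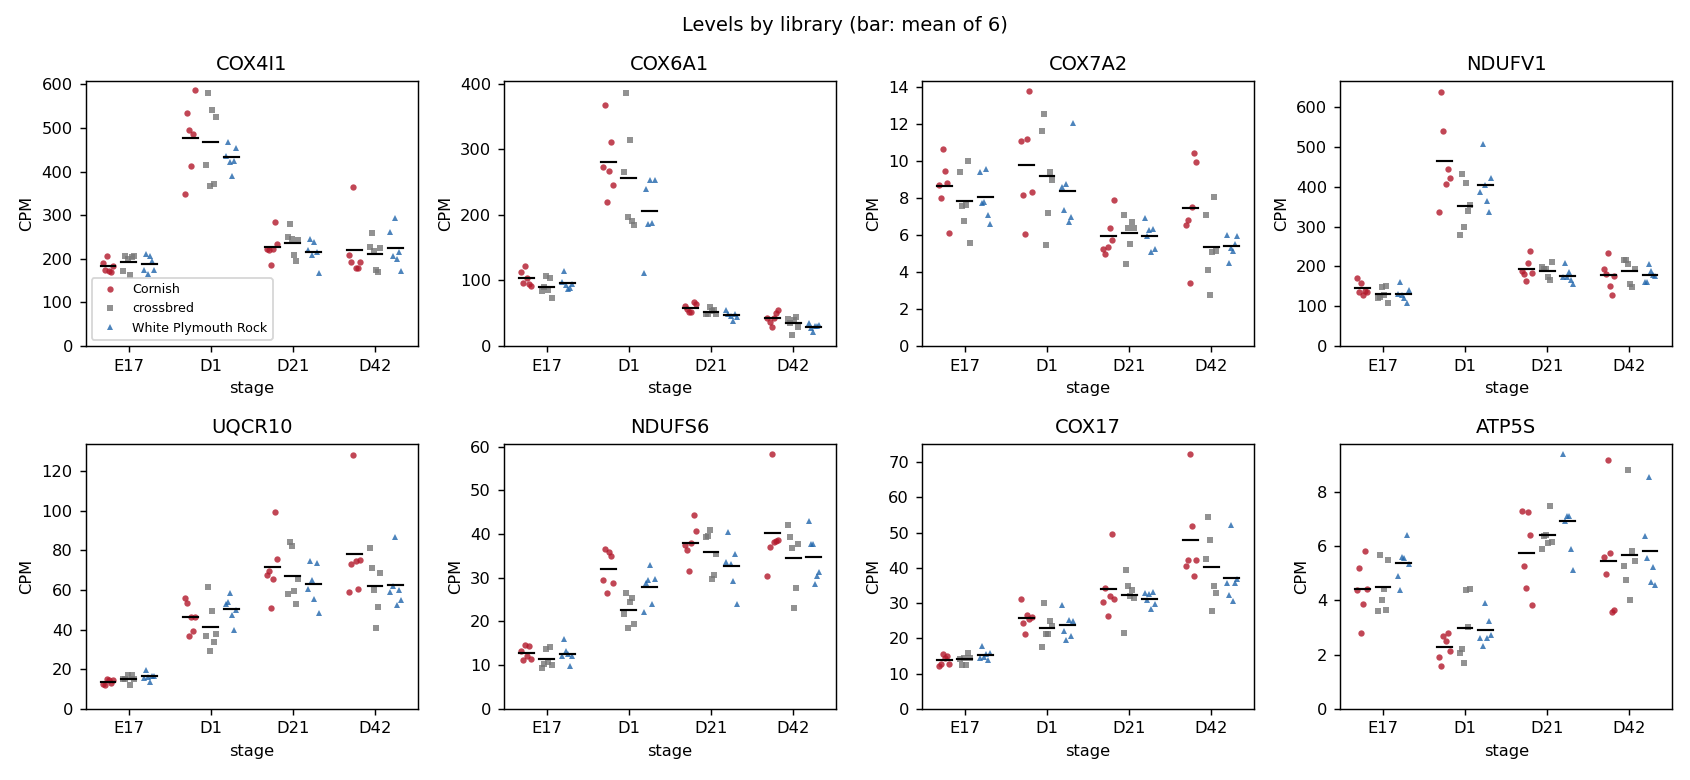
CPM (y axis, from 0) of COX4I1, COX6A1, COX7A2, NDUFV1, UQCR10, NDUFS6, COX17 and ATP5S in each library by stage (x axis) and breed group, with bars at the means of 6 libraries. COX4I1 and NDUFV1 peak at D1, COX6A1 ends below its E17 level, UQCR10, NDUFS6 and COX17 remain high after D1, and ATP5S is lowest at D1.

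From D21 to D42 changes were small, with a median of -0.13 over the subunits. Of 62 subunits 24 fell and none rose, and of all 82 members 25 fell and 3 rose, against 15.6% and 17.1% of all genes. ATP5G3 went from 113 to 262 CPM at D21 (median 147.0) to 75.9 to 149 CPM at D42 (median 94.7) and fell by 0.64 ± 0.10 (adjusted p = 1.0e-06). ATP5F1AZ fell by 0.58 ± 0.09 (adjusted p = 2.2e-06), from 668 to 1458 CPM to 477 to 833 CPM, and COX6A1 by 0.58 ± 0.09 (adjusted p = 2.9e-06), to 17.6 to 54.9 CPM. All 3 overlapped between the stages. Falls of 0.33 to 0.42 were found for NDUFV2 (0.37), UQCRHL (0.34), UQCRFS1 (0.33) and the stalk subunit ATP5PO (0.42).

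The members that rose from D21 to D42 were assembly factors: COX17 by 0.35 ± 0.08, COX18 by 0.35 ± 0.10 and NDUFAF5, which modifies NDUFS7, by 0.23 ± 0.07. Without the D42 libraries numbered 3 NDUFAF5 no longer passed (0.14, adjusted p = 0.11). No member passed in all 3 breed groups, a pattern met by 1.01% of all genes upwards and 0.67% downwards. In Cornish alone 7 subunits fell and COX17 rose, with 8.95% of all genes called either way, and without the D42 libraries numbered 3 the count of members called in Cornish went from 8 to 19, all 19 lower. Cornish D42 library 3 had the highest subunit level of its group, with a median log2 difference of 0.65 from the other 5 libraries. With library totals the split over the breed mean was 19 lower and 8 higher. The shares of all genes called with library totals, or without the D42 libraries numbered 3, are not given here. Of the mitochondrial DNA genes 1 rose (ND3) and none fell, 9 of 12 leukocyte markers rose, and 7 of 8 red blood cell markers fell. Their part was not tested.

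Over the whole interval from E17 to D42, 50 subunits rose and 4 fell, with a median of 0.62, and 66 members rose and 5 fell, against 40.0% and 41.2% of all genes and a median gene at -0.02. For 16 subunits every D42 library lay above every E17 library, as for 14.6% of all genes. UQCR10 rose most, from 11.9 to 19.5 CPM to 40.7 to 128 CPM (median 61.3), without overlap, by 2.16 ± 0.10 (adjusted p = 2.1e-30). UQCR11 rose by 1.68 ± 0.13, NDUFS6 by 1.57 ± 0.08 and NDUFB10 by 1.50 ± 0.10. Among assembly factors 14 of 17 rose, with COX17 going from 12.2 to 17.7 CPM (median 14.5) to 27.8 to 72.2 CPM (median 39.1), without overlap, a change of 1.53 ± 0.08 (adjusted p = 8.7e-26).

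Among the members that ended lower were COX6A1, COX7A2, ATP5PO and COX18. COX6A1 was at 73.0 to 122 CPM at E17 and at 17.6 to 54.9 CPM at D42, without overlap, and fell by 1.46 ± 0.10 (adjusted p = 6.2e-22). COX7A2 fell by 0.44 ± 0.12, COX18 by 0.40 ± 0.10 and ATP5PO by 0.20 ± 0.09. The beta subunit gene ATP5B (0.08), ATP5F1AZ (-0.07), ATP5MC1 (0.08) and UQCRC1 (-0.01) did not pass, although each had risen by 1.04 to 1.62 at hatch. Library totals placed the median of all genes over this interval at -0.41, with 45 members higher and 19 lower. The shares of all genes called with library totals are not given here. Under that scaling COX4I1, NDUFAB1 and ATP5MC1 were lower at D42 than at E17. Over the same interval 10 of 12 fibroblast markers fell and none rose, with sums of 45390 to 68220 CPM at E17 and 5993 to 31410 CPM at D42. All 12 leukocyte markers rose, from sums of 194 to 267 CPM to 426 to 3922 CPM, and 6 of 8 red blood cell markers fell and 1 rose, with sums of 543 to 1615 and 106 to 646 CPM. All 8 adipocyte markers rose, and of 10 slow fibre markers 7 fell and 3 rose. Of 9 fast fibre markers 8 rose and 1 fell, with a median of 1.78. The part of these cells in the change of the respiratory chain genes was not tested.

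Taken over the 4 stages, 55 of the 62 subunits had their highest mean log2 CPM at D1, as did 24.1% of all genes. The 7 exceptions peaked at D21 (5) or D42 (2), and all subunits of complexes II, IV and V peaked at D1 on that scale. In mean CPM the complex IV subunit COX7C was at 57.0 at D1 and slightly higher, at 58.2, at D42. Of the 17 assembly factors 8 peaked at D1. The sequence of a rise, a fall and a further fall was found for 21 members, all of them subunits, and in 2.44% of all genes; a rise, a fall and no call at the last step was found for 31 members and in 10.6% of all genes. COX17 was the one member called higher at every step, 1.22% of members against 2.66% of all genes. That pattern was lost with library totals, where the COX17 change from D1 to D21 was 0.11 and did not pass.

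Within groups, libraries that were high for 1 subunit tended to be high for the others. After removing group means, the mean pairwise Pearson correlation over the 72 libraries was 0.610 among the 62 subunits, 0.635 within complex I, 0.704 within complex III, 0.407 within complex IV and 0.651 within ATP synthase. It was 0.236 among the 17 assembly factors and 0.646 among 16 genes of the pyruvate dehydrogenase complex and the citric acid cycle. Among the 13 genes of mitochondrial DNA it was 0.849 and among 16 glycolytic genes 0.147, against 0.00279 over all genes. The points share libraries and scaling factors, so these values are a description only.

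Breed groups were then compared within each stage, over the 18 libraries of that stage. At E17 no member was called higher in Cornish than in White Plymouth Rock and 2 were called lower. Of all genes 3.72% were called in either direction. NDUFA6, an accessory subunit of complex I at chr1:49457063-49458621, ranged over 10.4 to 13.6 CPM for Cornish (median 11.9), 13.4 to 16.2 CPM for White Plymouth Rock (median 15.4) and 11.1 to 14.7 CPM for the crossbred (median 11.7). Cornish was lower by 0.35 ± 0.09 (adjusted p = 0.033), with a slight overlap of 13.6 against 13.4 CPM. SDHAF4, an assembly factor of complex II, had 4.89 to 7.25 CPM in Cornish (median 5.44) and 6.31 to 11.9 CPM in White Plymouth Rock (median 8.23), with overlap, and was lower in Cornish by 0.63 ± 0.17 (adjusted p = 0.043). The subunits' median difference at E17 was 0.016. Of the subunits 32 of 62 were higher in Cornish, where 5738 of 11717 genes were higher. In edgeR's test 19 of 82 members and 2323 of 11717 genes had an unadjusted p under 0.05. At that stage 5 of 8 red blood cell markers were called higher in Cornish, with sums of 1152 to 1615 CPM against 543 to 1115 CPM, and 1 of 11 endothelial markers was called higher, with sums of 885 to 1103 against 833 to 977 CPM. Their part in the differences of NDUFA6 and SDHAF4 was not tested. Neither gene passed when all 72 libraries were fitted together (adjusted p = 0.39 and 0.48), and SDHAF4 did not pass with the replicate number as a block (adjusted p = 0.083).

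At D1 no member was called between the purebreds, nor was any of the 11566 genes tested (0%), while 13 members and 1002 genes had an unadjusted p under 0.05. Of the subunits 57 of 62 were higher in Cornish, with a median of 0.22, where 5398 of 11566 genes were higher and the median gene was at -0.02. The smallest p was that of NDUFB10, at 193 to 268 CPM in Cornish (median 211) and 119.9 to 188 CPM in White Plymouth Rock (median 138), which did not overlap. Its difference was 0.61 ± 0.13 (adjusted p = 0.11), and DESeq2 called it (adjusted p = 0.0044). Since the subunits vary together within groups, their shared sign is not 62 separate observations. Of the cell markers none was called at D1. Higher in Cornish were 8 of 9 fast fibre, 9 of 11 endothelial, 1 of 12 fibroblast and 1 of 11 leukocyte markers. So were 6 of 10 slow fibre, 6 of 8 red blood cell and 6 of 7 adipocyte markers. Their part in the difference of the subunits was not tested.

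At D21 NDUFAF7, a methyltransferase needed for complex I assembly, was higher in Cornish, with 1.53% of all genes called in that direction. Cornish libraries had 19.1 to 21.4 CPM (median 20.9) and White Plymouth Rock libraries 11.0 to 17.6 CPM (median 12.7), with the crossbred at 14.5 to 23.4 CPM (median 18.5). The purebreds did not overlap and differed by 0.61 ± 0.12 (adjusted p = 0.015). Of the subunits 58 of 62 were higher in Cornish, with a median of 0.19, and none was called. Over all genes 5576 of 11513 were higher and the median gene was at -0.01. Among cell markers 9 of 9 fast fibre, 9 of 12 fibroblast and 7 of 8 adipocyte markers were higher in Cornish at D21. So were 5 of 12 leukocyte, 4 of 11 endothelial, 3 of 9 slow fibre and 2 of 8 red blood cell markers. Called were 1 fast fibre marker (higher) and 1 endothelial marker (lower). Their part was not tested. In edgeR's test 17 of 82 members and 2091 of 11513 genes had an unadjusted p under 0.05. At D42 no member was called, against 0.0347% of all genes. There 45 of 62 subunits were higher in Cornish, with a median of 0.15, where 5928 of 11532 genes were higher. Among cell markers 8 of 9 fast fibre, 10 of 12 fibroblast and 6 of 8 adipocyte markers were higher in Cornish at D42. So were 6 of 12 leukocyte, 0 of 11 endothelial, 6 of 8 slow fibre and 8 of 8 red blood cell markers. None of these markers was called, and their part was not tested. DESeq2 called no member there, the fit of all 72 libraries called NDUFAF8 (adjusted p = 0.041), and 7 of 82 members and 978 of 11532 genes had an unadjusted p under 0.05. The median over the 13 genes of mitochondrial DNA was -0.10 at E17, 0.28 at D1, 0.41 at D21 and 0.41 at D42, with none called. In edgeR's test 2, 3, 10 and 1 of the 13 had an unadjusted p under 0.05 in the same order. Over all genes the counts were 2323 of 11717, 1002 of 11566, 2091 of 11513 and 978 of 11532. The 13 vary together within groups and are not separate observations.

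Whether the purebred difference depended on stage was tested in the fit of 72 libraries. No member passed, with 0.268% of all genes called, and 7 of 82 members and 1343 of 11932 genes had an unadjusted p under 0.05. The smallest adjusted p was that of the complex I assembly factor NDUFAF8 (0.13), with purebred differences of -0.41 at E17, 0.12 at D1, -0.09 at D21 and 0.73 at D42, followed by NDUFA6 (0.20) with -0.35, 0.10, 0.08 and 0.30. No member was called in the purebred difference of a step either, against 0.0251%, 0.117% and 0.168% of all genes at the 3 successive steps and 0.134% from E17 to D42; an unadjusted p under 0.05 was found for 9, 1, 2 and 16 of 82 members in the same order, and for 796, 1145, 862 and 1043 of 11932 genes. For the rise at hatch, the subunits' median was 1.32 for Cornish, 1.09 for White Plymouth Rock and 1.12 for the crossbred.

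**Figure D5:**
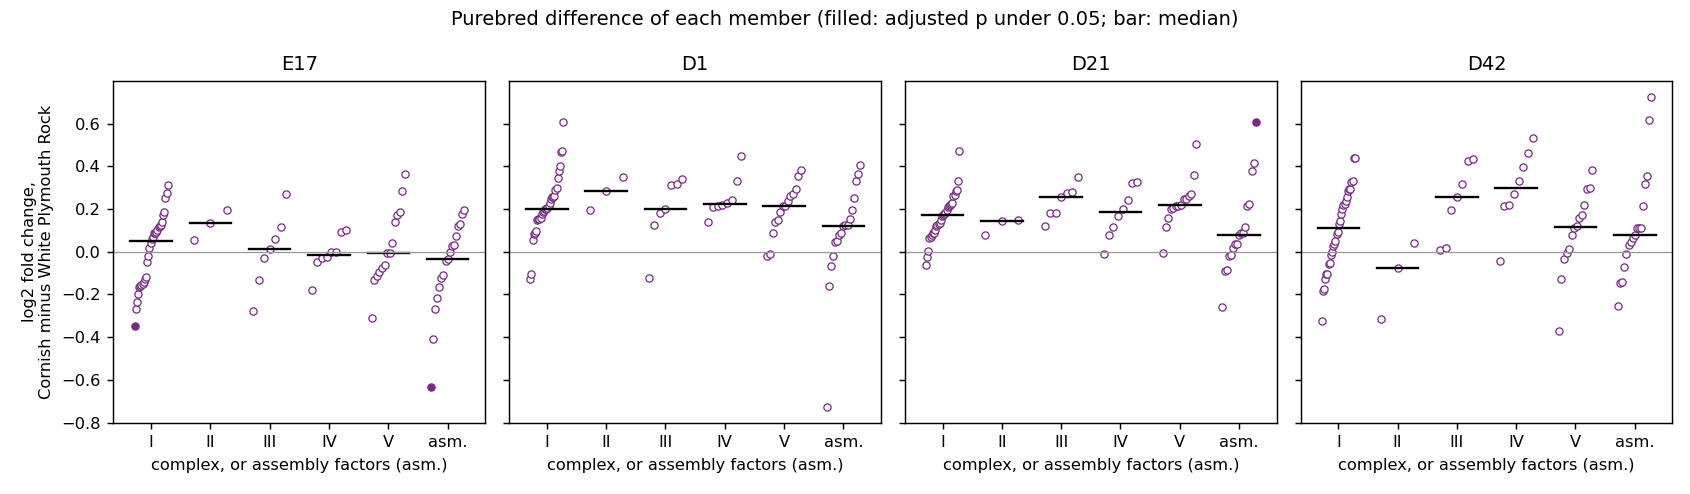
Log2 difference between Cornish and White Plymouth Rock (y axis) of each subunit by complex and of each assembly factor (x axis) at each stage. Filled points have an adjusted p under 0.05 and bars are medians; 3 points are filled, 2 below 0 at E17 and 1 above 0 at D21.

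No member was called between the crossbred and the mean of its parental breeds at any stage, and no gene of the table was called in those 4 comparisons (0%). Members with an unadjusted p under 0.05 numbered 2 at E17, 10 at D1, 1 at D21 and 0 at D42, against 671 of 11717, 570 of 11566, 389 of 11513 and 248 of 11532 genes, and DESeq2 called no member either. At D1 the subunits' median against the parental mean was -0.20, with 7 of 62 higher in the crossbred. The matching count over all genes is not given here. Against Cornish at D1, a comparison added after the data were seen, the median was -0.30. Only 1 of 62 subunits was higher in the crossbred, where 5949 of 11566 genes were higher. In edgeR's test 23 subunits and 674 of 11566 genes had an unadjusted p under 0.05, but no gene was called (0%). The smallest p was that of NDUFS6, at -0.49 ± 0.12 (adjusted p = 0.51). The subunits vary together within groups and are not separate observations. Higher in the crossbred than in Cornish were 1 of 9 fast fibre, 1 of 11 endothelial and 1 of 10 slow fibre markers. So were 9 of 12 fibroblast, 5 of 11 leukocyte, 1 of 8 red blood cell and 1 of 7 adipocyte markers. Their part was not tested. Against White Plymouth Rock at D1 the subunits' median was -0.09. At D21 it was -0.05 against Cornish and 0.14 against White Plymouth Rock, and at D42 -0.12 and 0.01, with no member called. At E17 no member was called against either parental breed. Of all genes 0.0171% and 0.122% were called against Cornish at E17 and D21, 0.00853% against White Plymouth Rock at E17, and 0% in the other comparisons of the crossbred with 1 parental breed.

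In the authors' deposited table for D1, 31 of the 82 members were listed between the crossbred and Cornish, and all 31 were higher in Cornish. That is 37.8% of the members beside 8.01% of the genes. Of the 31, 28 were subunits, which vary together within groups and are not separate observations. The sign in the authors' deposited table is that of the second group minus the first, as all of its signs were opposite to those of the first minus the second in the counts. For Cornish against White Plymouth Rock the authors' deposited table listed 21 members at E17, of which 10 were higher in Cornish. It listed 13 at D1 (12 higher in Cornish), 20 at D21 (19) and 10 at D42 (8). As shares of the members the authors' deposited table thus listed 25.6%, 15.9%, 24.4% and 12.2% from E17 to D42, beside 20.9%, 9.25%, 17.6% and 9.99% of the genes. Between the crossbred and Cornish the authors' deposited table listed 4 members at E17, 1 at D21 and 0 at D42, or 4.88%, 1.22% and 0% beside 11.8%, 11.0% and 2.50% of the genes. Between the crossbred and White Plymouth Rock the authors' deposited table listed 4, 3, 12 and 3 members from E17 to D42, or 4.88%, 3.66%, 14.6% and 3.66% beside 9.09%, 5.78%, 5.53% and 5.91% of the genes. The authors' deposited table gives p-values, none above 0.05, and no adjusted ones. Its listings are therefore not comparable with calls at an adjusted p under 0.05. In edgeR's test, 26 members and 674 of 11566 genes had an unadjusted p under 0.05 between the crossbred and Cornish at D1.

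ATP5A1W was close to 0 in these male libraries. Its count was 0 in 13 of 72 libraries, with a median of 14 and a highest value of 66, where its Z-linked counterpart ATP5F1AZ had 472 to 2270 CPM. Reads that cannot be assigned between such similar copies make its values uncertain, and its call as higher at D1 than at E17 (1.21) rests on counts of this size.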

How the data were processed

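RNA was extracted with a Promega kit from frozen breast muscle and made into Illumina TruSeq libraries, per the labels' protocols. The authors deposited 1 table of whole-number estimated counts for 72 libraries. Per the submitters' processing notes, the tools were HISAT2 2.2.1, cutadapt 4.4 and StringTie, with the GRCg7b build; their roles, the annotation and the strand setting are not given. Of deposited counts from 1 to 20, 32.9% were multiples of 4, and 2.36% of all values were 0. Result tables for the breed comparisons, deposited by the authors, hold a base mean signal, log2 fold change and its error, a test statistic score and a p-value; only genes listed there, their signs and counts were used.

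Counts were tested in R 4.3.3 with edgeR 4.0.16 (TMM scaling, its default filter on low counts, quasi-likelihood test) and Benjamini-Hochberg adjustment over all genes tested. All 72 libraries entered the stage steps (mean over breed groups, and each group) and the test of whether the purebreds' difference varied by stage. Breed comparisons at a stage used its 18 libraries, with 11513 to 11717 genes tested. Relative levels are log2 CPM with a prior count of 2. The procedure was run on simulated data in which each gene varied independently. The subunits varied together, so that check does not cover their shared variation. DESeq2 1.42.0 and the alternatives of the closing section were run beside it.

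The genes, lists and tests were chosen with earlier results of these data known. Comparisons of the crossbred with each parental breed and the scaling by library totals were added after the data were seen. Genes named for the stage steps were those with the largest called changes by complex and direction, at a mean of at least 5 CPM. A set of catalytic and isoform members was named without that limit. So were members with the largest called changes or smallest p-values in breed comparisons. Others were named after their values were seen. Values of 1 member are not reported here. Sequences were not used here. Positions and overlaps are from RefSeq GRCg7b.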

Additional observations from a re-analysis of the deposited data

Results flagged for a closer look

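Of 90 sets of 6 libraries examined, 12 held a library whose gap to the nearest of the others exceeded 0.625 of the group's range. For a single set chance gives about 1 in 20. The sets reuse the same libraries and their genes vary together, so the 12 cannot be set against that rate. The values are medians of relative log2 levels.

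Cornish D42 library 3 accounted for 6 of the 12 and was high in each. Its value was 0.653 for complex I, where the other 5 libraries ran from -0.149 to 0.058, and 0.491 for complex II, where they ran from -0.262 to -0.067. It was 0.763 for complex III (others -0.019 to 0.225) and 0.598 for complex IV (others -0.032 to 0.101). For ATP synthase it was 0.440 (others -0.429 to -0.137), and for the assembly factors 0.713 (others -0.0089 to 0.169).

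White Plymouth Rock E17 library 2 was high for complex I at -0.346 (others -0.753 to -0.624) and for complex IV at -0.341 (others -0.659 to -0.585). Cornish D1 library 2 was high for ATP synthase at 1.11 (others 0.638 to 0.752). Crossbred D1 library 1, the library with the fewest counts, was high for the genes of mitochondrial DNA at 0.925 (others -0.011 to 0.304). Crossbred D21 library 5 was low for the assembly factors at -0.086 (others 0.157 to 0.277). White Plymouth Rock D21 library 6 was low for complex I at -0.262 (others 0.074 to 0.231).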

How the results depend on the processing

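Under the alternatives, 306 counts of members called were within 1.5 times the reported count and 11 were not. The cause was not tested for these. The shares of all genes called under the alternatives are not given here. The counts below therefore do not set the members against other genes. From D21 to D42 in Cornish, 19 members were called instead of 8 without the D42 libraries numbered 3. Over the breed mean that setting gave 39 instead of 28, which is within 1.5 times. Between the purebreds DESeq2 called 5 members at E17 instead of 2, 1 at D1 instead of 0, 3 at D21 instead of 1, and 1 for the change from E17 to D42 instead of 0; it also called 1 between the crossbred and Cornish at E17 (SDHAF4, adjusted p = 0.0071). With all 72 libraries in 1 fit, 0 members were called between the purebreds at E17 and 1 at D42 (NDUFAF8, adjusted p = 0.041). With library totals in place of scaling factors, 2 members instead of 1 were called from D21 to D42 in White Plymouth Rock, and 1 instead of 0 for the purebred difference from E17 to D42.

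Library totals also turned the sign of 6 named changes. From D1 to D21 NDUFA8 became -0.0042 and NDUFB8 -0.24, and from E17 to D42 COX4I1 became -0.19, NDUFAB1 -0.22, NDUFS1 -0.044 and ATP5MC1 -0.33. The replicate number as a block lowered the count between the purebreds at E17 to 1 and gave 76, 69 and 28 members for the 3 successive steps. Same-numbered libraries of different breed groups had mean correlations of -0.029 to 0.018 at E17, D1 and D21. At D42 these means were 0.16 to 0.17, against -0.031 to -0.030 for libraries of other numbers. There 4, 3 and 1 of 6 libraries correlated best with their own number. Pairs below 0.1 were found in every comparison, and the main tests did not take the numbers as pairs. The D42 breed tests therefore leave out any structure shared by number. Without the D42 libraries numbered 3, COX4I1 from E17 to D42 (0.094, adjusted p = 0.20) and NDUFAF5 from D21 to D42 (0.14, adjusted p = 0.11) no longer passed. Leaving out the shallowest library, crossbred D1 library 1, kept every count within 1.5 times. Members of a few CPM, such as COX14, NDUFAF8, ATP5S and COX7A2, rest on the fewest reads.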
